A study of Rattus norvegicus with 10 samples.

Results

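The fragments of the glutamine tRNA with the anticodon CTG, tRNA-Gln(CTG), comprised 85 of the 2262 tRNA fragments listed for the rat brain. They were chosen by the name of the parental tRNA, with any first and last position, and 3 of the 69 listed tRNAs carry this name. Of the 85 fragments, 26 were listed with a sequence that was not longer than the tRNA positions it spans, and 59 with a sequence that was longer. The latter were kept apart, because their listed bases do not show which bases the reads covered. The list itself was also selected on the readout, since each of the 2262 fragments was read at least 1 time in all ischemic libraries. Detection in ischemia is therefore a property of the list and was given no test.

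Small RNAs were sequenced from both brain sides of 5 rats, the right being ischemic and the left uninjured, which gave 10 libraries. The animals were adult male Sprague-Dawley rats with middle cerebral artery occlusion (MCAO), a model of stroke in which a suture blocks the artery for a time and is then withdrawn, and tissue was taken at 24 hr. The left side of the same animal served as control, so both groups came from operated rats. The question was which tRNA fragments differ between the sides. Libraries held 5125962 to 42674116 reads, of which 100418 to 4119056 were listed tRNA fragments, and the largest total belonged to the control library of rat 72. The groups followed the side given in the titles. For 4 libraries the source label names the opposite condition, namely the ischemic side of rats 45 and 52 and the control side of rats 71 and 72, so the main results are also given for the other 6, termed concordant libraries here. The list holds no marker genes, so the tissue could not be checked against them.

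A tRNA carries an amino acid to the ribosome and reads the codon through its anticodon, and tRNA-Gln(CTG) delivers glutamine. In stressed cells the ribonuclease angiogenin cuts mature tRNAs in the anticodon loop, which gives a 5′ and a 3′ tRNA fragment, each ending or beginning in the loop. Some 5′ fragments of this kind are known to repress translation, and glutamine tRNAs are among the parents for which such fragments have been described.

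The fragments that begin at the first base of tRNA3809-GlnCTG are shown first, since they held most reads of the 26 fragments. The capital marks the last base of each fragment.
positions 1 to 34: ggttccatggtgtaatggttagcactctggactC
positions 1 to 33: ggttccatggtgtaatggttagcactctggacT
positions 1 to 32: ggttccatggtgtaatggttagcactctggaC
positions 1 to 31: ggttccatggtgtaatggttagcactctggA
positions 1 to 30: ggttccatggtgtaatggttagcactctgG
positions 1 to 29: ggttccatggtgtaatggttagcactctG

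The anticodon CTG occupied positions 34 to 36 of this tRNA of 72 nts, so the longest of these fragments ended at the first anticodon base. The others ended up to 5 bases before it, in the 5′ part of the anticodon loop and its stem.

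The 59 fragments kept apart all showed 1 sequence of 57 nts, which no fragment of another anticodon carried. Of them, 58 were listed under tRNA3809 and 1, of positions 19 to 45, under tRNA4199. It is printed because their positions can only be read against it, and the capitals mark the anticodon.
long sequence: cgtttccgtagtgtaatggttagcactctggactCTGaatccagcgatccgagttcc

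Placed on tRNA3809, its bases ran from position 0, the base before the tRNA, to position 56. Over the 36 bases that could be compared, 3 differed from the fragments above, written with the base of tRNA3809 first and the position counted from its 5′ end, namely G2T, A7G and G9A. From position 10 onwards all compared bases were identical. The listed spans of these fragments were 26 to 34 nts, with first positions 7 to 28 and last positions 33 to 55, and 6 of the 59 began before position 10. The start of the long sequence was also compared with other listed tRNAs. Its bases 2 to 15, a run of 14 nts, were identical to the start of the main fragment of tRNA1600-ValCAC, a valine tRNA, in which the shared bases are in capitals. A longer run of 21 nts, bases 2 to 22, was identical to the start of 2 rarer listed fragments, of tRNA1600-ValCAC and tRNA1631-ValAAC, which together had 520 reads over the 10 libraries.
tRNA1600-ValCAC main fragment: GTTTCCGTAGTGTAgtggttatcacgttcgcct

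The 26 fragments within their span were higher in the ischemic group as a sum. In reads per 1000000 reads of the library (RPM), their summed level was 9.84, 6.25, 7.56, 8.15 and 8.72 RPM on the control side of rats 45, 52, 61, 71 and 72. In the ischemic libraries of the same rats it was 120.2, 124.2, 41.9, 60.1 and 118.9 RPM. The groups did not overlap, and the ischemic side was higher in 5 of 5 rats, with rats 61 and 71 lowest among the ischemic libraries. The mean level rose from 8.10 ± 1.34 RPM to 93.1 ± 39.0 RPM (SD, n = 5 each), a mean log2 difference of 3.41 or 10.6-fold (exact permutation test, two-sided as throughout, p = 0.00794, which is the smallest that 5 libraries against 5 allow, and 0.0185 after Benjamini-Hochberg adjustment over the 14 single values tested). Some of the 14 values are treated below as descriptions or as no support. They sit at the smallest p and lower the adjusted p of the others. With the 6 concordant libraries, the log2 difference was 3.11 (exact permutation p = 0.1, the smallest possible there). With groups formed by the source label it was 0.32 (exact permutation p = 0.857). In tissue, a change in the cells present and a change of RNA per cell cannot be told apart.

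The rise was next set against that of all tRNA fragments. As a share of all listed tRNA reads, the 26 fragments took 0.0412% ± 0.0148 in controls and 0.0285% ± 0.00464 in ischemia (SD, n = 5). This difference did not pass the test (exact permutation p = 0.0714), and the share was lower in ischemia in 4 of 5 rats. In the 6 concordant libraries the difference was -0.00725 percentage points (exact permutation p = 0.2). With the 59 fragments included the difference was -0.832 percentage points (exact permutation p = 0.00794). This restates the rise of all tRNA reads beside an overlapping sum of the 59 and is a description. Without the control library of rat 52 the share of the 26 passed the test (difference -0.0163 percentage points, exact permutation p = 0.0317), and without that of rat 72 the difference shrank from -0.0127 to -0.00675 percentage points (exact permutation p = 0.143).

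Among single fragments, 876 of 2262 had at least 10 reads in at least 5 libraries and were tested with edgeR's quasi-likelihood test, with library totals as library sizes. Of these 876, 94.5% were higher and 3.31% lower in the ischemic group at an adjusted p of 0.05, with a median log2 fold change of 4.23. Of the 26 glutamine fragments 8 could be tested, and 8 were higher, with a median log2 fold change of 3.60. All 8 had at least 10 reads in 1 or more control libraries, but only the fragment of positions 1 to 34 had them in every library, so most passed the filter through the ischemic group, and the count is a description beside the background share. When the fit was scaled to the tRNA reads with TMM factors (a trimmed mean of fragment ratios), which asks about change relative to the other tRNA fragments, 18.9% of the 876 had a larger and 11.0% a smaller share, with a median of 0.34. None of the 8 passed the threshold in either direction there by edgeR or DESeq2, none reached an unadjusted p of 0.05 in edgeR, and their median log2 change was -0.38. Without the ischemic library of rat 72, 1 of the 8 had a smaller share, and 1 reached an unadjusted p of 0.05 with rats as a block or without TMM factors.

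The fragment of positions 1 to 34, a 5′ fragment ending at the first anticodon base, was the most abundant of the 26. It measured 2.59, 2.27, 2.03, 2.14 and 2.48 RPM on the control side of rats 45, 52, 61, 71 and 72, and 28.4, 33.8, 11.6, 22.2 and 27.3 RPM in their ischemic libraries. All control values lay close together and below every ischemic value. Its log2 fold change was 3.41 ± 0.50 (SE), with an adjusted p of 1.07e-06 in edgeR's quasi-likelihood test and 0.000261 in the 6 concordant libraries.

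Shorter by the anticodon base, the fragment ending at position 33 measured 2.24, 0.71, 1.48, 0.97 and 1.57 RPM in the control libraries and 22.6, 29.3, 5.32, 9.95 and 26.5 RPM in the ischemic libraries, in the same order of rats. The groups did not overlap here either, and the ischemic library of rat 61 was lowest. The log2 fold change was 3.73 ± 0.59 (SE, adjusted p = 3.03e-06, edgeR). The fragment of positions 1 to 32 measured 0.19 to 0.52 RPM in controls and 2.15 to 11.0 RPM in ischemia, and its log2 fold change of 4.04 ± 0.62 (SE, adjusted p = 1.93e-06, edgeR) was the highest of the 8 estimates, which ran from 3.07 to 4.04 with standard errors of 0.50 to 0.71. The 5′ fragment ending at 31 was uneven between rats. It measured 0.98 to 1.73 RPM in the control group and 12.1, 11.0, 1.93, 2.54 and 25.1 RPM in the ischemic libraries of rats 45, 52, 61, 71 and 72, so that rats 61 and 71 lay just above the controls and rat 72 far above them. The shortest, ending at position 29, measured 0.60 ± 0.49 RPM in controls and 5.08 ± 1.39 RPM in ischemia (SD, n = 5), with a log2 fold change of 3.10 ± 0.61 (SE, adjusted p = 4.25e-05, edgeR). The fragments ending at 33, 32 and 29 had at least 10 reads in all 5 ischemic libraries. On the control side, that ending at 33 reached 10 reads in rats 45 and 72, and those ending at 32 and 29 in rat 72 alone. So all of them passed the filter through the ischemic group, and their p-values are a description.

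Cleavage ends were compared as shares of reads, which are not scaled to the library total. They cover listed fragments only, all read in every ischemic library, so ends seen mainly in controls may be missing. Fragments beginning at position 1 took 84.9% ± 4.03 of the reads of the 26 fragments in controls and 80.1% ± 8.15 in ischemia (SD, n = 5, exact permutation p = 0.286). The ischemic library of rat 72 had the highest 5′ share, 93.6% (95% Wilson interval 92.0 to 94.9), and without it the difference of -8.18 percentage points passed the test (exact permutation p = 0.0317). Among the 5′ reads, those ending at position 34 took 40.5% ± 3.71 in controls and 40.7% ± 9.59 in ischemia (SD, n = 5, exact permutation p = 0.968). Those ending at position 33 took 23.3% ± 4.02 and 26.9% ± 4.87, those ending at 32 took 5.73% ± 2.32 and 9.64% ± 2.32, and those ending at 31 took 18.4% ± 3.01 and 11.7% ± 6.91 (SD, n = 5, not tested). Reads of 29 to 34 nts took 85.3% ± 3.90 of the reads of the 26 fragments in controls and 83.1% ± 6.72 in ischemia (SD, n = 5, exact permutation p = 0.532), a difference of -2.21 percentage points that ranged from -4.99 without the ischemic library of rat 72 to -0.728 without the control library of rat 45. With the 59 fragments included, none of which begins at position 1, both shares turned upward, by 28.3 percentage points for the 5′ reads and by 30.1 for the reads of 29 to 34 nts (exact permutation p = 0.00794 each). For the 5′ reads, this restates the rise of the 26 fragments beside an overlapping sum of the 59 and is a description. The control shares rested on few reads, 556 over 5 libraries and 41 to 372 per library, against 3255 in the ischemic group.

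Further fragments began at position 6 or 7, and 3 are printed because they lack the 5′ end of the tRNA but keep the same cleavage ends.
positions 7 to 33: atggtgtaatggttagcactctggact
positions 7 to 34: atggtgtaatggttagcactctggactc
positions 6 to 33: catggtgtaatggttagcactctggact

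The 4 fragments beginning at position 6 or 7 summed to 0.86, 0.28, 1.11, 0.97 and 1.10 RPM on the control side of rats 45, 52, 61, 71 and 72 and to 25.2, 17.7, 5.86, 11.9 and 3.52 RPM in the ischemic libraries. The ischemic library of rat 72 was the lowest here and the highest for the fragment of positions 1 to 31. Log2 fold changes were 3.51 ± 0.65 for positions 7 to 33, 3.69 ± 0.64 for 7 to 34 and 3.71 ± 0.71 for 6 to 33 (SE), with adjusted p-values of 2.14e-05, 8.67e-06 and 2.91e-05 in edgeR's quasi-likelihood test. Of the control libraries only that of rat 72 held at least 10 reads of any of the 3. The fragments of positions 7 to 33 and 7 to 34 passed the filter through the ischemic group. That of positions 6 to 33 had 4 reads in the ischemic library of rat 72. It passed through the other ischemic libraries and the control library of rat 72. The p-values of all 3 are a description. The 4 fragments beginning at positions 2 to 4 were too rare to be tested, with 0.248 ± 0.214 RPM in controls and 3.19 ± 0.974 RPM in ischemia (SD, n = 5). All 9 internal fragments together took 13.8% ± 4.67 of the reads in controls and 18.9% ± 8.11 in ischemia (SD, n = 5).

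Some 5′ fragments ending at positions 32 to 34 were listed more than once, with sequences that differed at position 9. They are shown for the end at 34, with the differing base in capitals. In the fourth, 1 G is missing, which can be placed at position 9 or 10.
G9T: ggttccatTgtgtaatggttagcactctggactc
G9C: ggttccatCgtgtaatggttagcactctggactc
G9A: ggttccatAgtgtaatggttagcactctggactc
deletion: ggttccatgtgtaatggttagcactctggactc

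Position 9 is a base at which many tRNAs carry a methyl group, and reverse transcription can misread such bases. Whether it does so here was not tested. Only variants read in every ischemic library were listed, so others may be missing from the shares. Reads with another or no base at this position took 14.7% ± 5.48 of the 5′ reads ending at 32 to 34 in controls and 13.4% ± 0.692 in ischemia (SD, n = 5, exact permutation p = 0.690, a comparison added after the values were seen). G9T was the most frequent in the ischemic group, with 124 of 2010 reads, followed by G9C with 63, the deletion with 56 and G9A with 29. In the control group the counts were 19, 16, 14 and 4 of 340 reads. The ischemic share varied little between rats, and the control share varied more, reaching 23.1% with 9 of 39 reads in the control library of rat 45 (95% Wilson interval 12.6 to 38.3).

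The other tRNAs of the anticodon were rare. Their fragments are printed because each shows 1 base, in capitals, that differs from tRNA3809 or from its partner.
tRNA4199-GlnCTG positions 17 to 45: ggtGagcactctggactctgaatccagcg
tRNA1634-GlnCTG positions 43 to 70, first: gcgatccgagttcaAatctcggtgggac
tRNA1634-GlnCTG positions 43 to 70, second: gcgatccgagttcaTatctcggtgggac

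The tRNA4199 fragment spans the anticodon and differs from tRNA3809 by T20G. This comparison used the tRNA3809 fragments up to position 36 and the long sequence beyond it. The tRNA1634 fragments lie in the 3′ part of the tRNA and differ from each other by A57T. They summed to 0.0896 ± 0.130 RPM in controls and 0.908 ± 0.562 RPM in ischemia (SD, n = 5), and the tRNA4199 fragment to 0.00469 ± 0.0105 RPM and 0.396 ± 0.320 RPM. The second tRNA1634 fragment had no read in any control library. A count of 0 allows up to 3 reads, which is 0.0703 to 0.582 RPM in the control libraries, so most of these levels lay near the limit. The planned exact permutation tests of both sums gave p = 0.00794 and count among the 14 values, but every listed fragment had a read in each ischemic library and so had to be above 0 there, and the p-values support nothing.

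The 59 fragments kept apart behaved differently as a sum. They measured 159.0, 70.3, 102.7, 197.1 and 260.7 RPM on the control side of rats 45, 52, 61, 71 and 72 and 166.1, 101.8, 139.7, 171.3 and 92.8 RPM in the ischemic libraries. The groups overlapped, with the control library of rat 72 highest and that of rat 52 lowest. The mean log2 difference was -0.13 (exact permutation p = 0.722), and the ischemic side was lower in 2 of 5 rats. It turned to 0.32 in the 6 concordant libraries (exact permutation p = 0.6) and to 0.0876 without the control library of rat 72, and was -0.39 without that of rat 52, so no direction can be given. Of the 59, 34 had a read in every control library, against 5 of the 26 and 599 of all 2262. In the control group these fragments held 94.4% ± 2.03 of all tRNA-Gln(CTG) reads, against 59.6% ± 15.6 in the ischemic group (SD, n = 5). This difference of -34.8 percentage points, -28.1 in the 6 concordant libraries, was computed after the values were seen. It restates the rise of the 26 fragments beside an overlapping sum of the 59 and is given as a description. The lowest share was 43.8% (95% Wilson interval 41.6 to 46.1), in the ischemic library of rat 72. Including these fragments, which held most tRNA-Gln(CTG) reads of the control libraries, reduced the log2 difference of the summed level from 3.41 to 0.57 (exact permutation p = 0.143).

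Within the 59, fragments of different spans moved in opposite directions. Of the 27 that could be tested, 10 were higher, 11 lower and 6 neither in edgeR's quasi-likelihood test, against 94.5% higher and 3.31% lower among all tested, and their median log2 fold change was -0.08. The 11 made up 37.9% of the 29 fragments of the whole list that were called lower. In the 6 concordant libraries, 3 of the 11 passed the threshold, those of positions 26 to 54, 27 to 54 and 8 to 33, while 9 were higher. With reads outside the tRNA list as library sizes, 6 of the 11 passed. In the fit scaled to the tRNA reads, 20 of the 27 had a smaller share and none a larger one, against 11.0% and 18.9% of all tested.

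The fragment of positions 26 to 54, which begins just before the anticodon stem and ends in the T arm, showed the most negative log2 fold change. It measured 13.1, 4.97, 20.1, 19.6 and 25.6 RPM on the control side of rats 45, 52, 61, 71 and 72 and 1.52, 1.72, 1.16, 6.05 and 4.31 RPM in the ischemic libraries. The ischemic side was lower in 5 of 5 rats, although the ischemic library of rat 71 lay above the control library of rat 52. The log2 fold change was -2.51 ± 0.59 (SE, adjusted p = 0.000295, edgeR). That of positions 27 to 54 went from 6.14 ± 2.39 RPM to 1.38 ± 0.670 RPM (SD, n = 5) without overlap, with a log2 fold change of -2.17 ± 0.55 (SE, adjusted p = 0.000630, edgeR). That of positions 28 to 53 had a log2 fold change of -2.12 ± 0.65 (SE, adjusted p = 0.00328, edgeR), and it was -1.07 (adjusted p = 0.185, edgeR) in the 6 concordant libraries. The 8 fragments beginning at 25 to 28 and ending at 53 or 54 were all tested, of which 6 were lower, against 3.31% of all tested, and 2 of the 6, those of positions 26 to 54 and 27 to 54, passed in the 6 concordant libraries. Together they measured 67.5, 27.7, 50.7, 84.5 and 119.7 RPM in the control libraries and 19.7, 11.5, 5.71, 36.1 and 23.7 RPM in the ischemic libraries of the same rats, lower in 5 of 5.

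The fragment of positions 8 to 33 shares its last base with the 5′ fragment of positions 1 to 33 but moved the other way. It measured 13.8, 9.08, 6.27, 25.05 and 20.6 RPM in the control libraries and 6.07, 3.96, 1.08, 5.66 and 3.18 RPM in the ischemic libraries, so the groups were apart by a narrow margin. Its log2 fold change was -1.92 ± 0.56 (SE, adjusted p = 0.00214, edgeR). The 3 fragments beginning at position 8 were called lower, against 3.31% of all tested, but in the 6 concordant libraries those of positions 8 to 34 and 8 to 40 lost the call (adjusted p = 0.0951 and 0.511, edgeR). Positions 16 to 42 gave another lower fragment, with 5.31 ± 3.50 RPM in controls and 1.14 ± 0.813 RPM in ischemia (SD, n = 5) and a log2 fold change of -2.27 ± 0.63 (SE, adjusted p = 0.00158, edgeR). Its call was lost in the 6 concordant libraries (-1.37, adjusted p = 0.0721, edgeR).

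Other spans rose. The fragment of positions 12 to 40 measured 0.69, 0.43, 0.55, 0.00 and 1.08 RPM on the control side of rats 45, 52, 61, 71 and 72 and 11.2, 4.65, 8.79, 6.83 and 2.61 RPM in the ischemic libraries. The groups did not overlap, and its log2 fold change was 3.45 ± 0.63 (SE, adjusted p = 1.88e-05, edgeR). That of positions 13 to 41 measured 0.00 to 0.96 RPM in controls and 3.10 to 7.56 RPM in ischemia, with a log2 fold change of 3.45 ± 0.62 (SE, adjusted p = 1.38e-05, edgeR). With 1 library left out it ranged from 3.16 to 4.69, the highest without the control library of rat 72. The 6 concordant libraries gave 4.98. Both fragments had at least 10 reads in all 5 ischemic libraries and in 1 control library, that of rat 72, so they passed the filter through the ischemic group. Relative to the other tRNA fragments both changes were below 0 and passed no threshold (-0.41 and -0.36). All 8 fragments beginning at 10 to 13 and ending at 40 or 41 were tested, and 7 of them were higher, no more than the 94.5% of all tested. Together they measured 7.34 ± 3.86 RPM in controls and 39.4 ± 12.1 RPM in ischemia (SD, n = 5). Of the 10 ending at position 45, 1 of them listed under tRNA4199, 3 were tested and 3 were higher, which says nothing beyond the same background. The sum of the 10 was higher in 4 of 5 rats. The 6 ending at 35 to 38 passed no filter, and their sum was 1.60 ± 0.630 RPM in controls and 10.2 ± 4.59 RPM in ischemia (SD, n = 5).

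Positions 15 to 40 and 16 to 41 gave the highest mean RPM over all 10 libraries among the 59, although other fragments exceeded them within a group, those of positions 26 to 54 and 8 to 33 both of them in controls and those of positions 13 to 40 and 12 to 40 the latter in ischemia. That of positions 15 to 40 measured 15.7, 6.53, 4.98, 20.97 and 16.8 RPM on the control side of rats 45, 52, 61, 71 and 72 and 16.3, 9.13, 13.6, 16.8 and 5.56 RPM in the ischemic libraries. The groups overlapped almost fully, and the log2 fold change was -0.08 ± 0.51 (SE, adjusted p = 0.870, edgeR). That of positions 16 to 41 had a log2 fold change of -1.14 ± 0.53 (SE, adjusted p = 0.0434, edgeR), which was lost with rats as a block (adjusted p = 0.113, edgeR), in the 6 concordant libraries (adjusted p = 0.844, edgeR), and without the control library of rat 45, 71 or 72 or the ischemic library of rat 45, 52 or 72 (adjusted p between 0.0535 and 0.146, edgeR). The 8 fragments beginning at 14 to 16 and ending at 40 to 42, to which both belong, summed to 41.7 ± 22.5 RPM in controls and 29.6 ± 9.39 RPM in ischemia (SD, n = 5). Of the 5 tested, 2 were lower, against 3.31% of all tested. These 2, of positions 16 to 41 and 16 to 42, both lost the call in the 6 concordant libraries. The sets of spans were formed after the values were seen and were given no test of their own. Overlapping fragments of 1 tRNA share their source and are not replicates of each other.

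The 26 fragments were compared with those of the other listed glutamine tRNA, tRNA-Gln(TTG), which reads the other glutamine codon and had 28 listed fragments, none with a sequence longer than its span. These summed to 21.2, 9.37, 15.5, 25.05 and 40.4 RPM on the control side of rats 45, 52, 61, 71 and 72 and to 152.5, 100.1, 79.3, 69.1 and 102.8 RPM in the ischemic libraries. The ratio of tRNA-Gln(CTG) to tRNA-Gln(TTG) was higher in ischemia by 1.12 on the log2 scale, 2.18-fold, in 5 of 5 rats (exact permutation p = 0.0159, 0.0317 adjusted over the 14 values). The adjusted value was lowered by the descriptive values among the 14 and is not given as support. The groups overlapped, the difference was 0.61 in the 6 concordant libraries (exact permutation p = 0.2), and it was -1.71 with the 59 fragments included (exact permutation p = 0.00794). The latter value restates the rise of tRNA-Gln(TTG) beside an overlapping sum of the 59 and is a description. So the direction of the ratio depended on whether the 59 fragments were counted.

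Of the leucine and lysine fragments compared next, 1 and 10 had a listed sequence longer than their span and were left in. Leucine tRNAs, planned as a compared group, had a lower summed level in ischemia in 5 of 5 rats. Their 15 fragments measured 211.1 ± 59.3 RPM in controls and 60.6 ± 14.6 RPM in ischemia (SD, n = 5), and the ratio of tRNA-Gln(CTG) to them was higher in ischemia by 5.19 on the log2 scale and by 2.36 with the 59 fragments included. As the sums of both groups had already moved apart, this ratio is a description, and its p, among the 14, is not given as support. Against the 147 fragments of lysine tRNAs, which measured 194.4 ± 63.6 RPM in controls and 1398 ± 673 RPM in ischemia (SD, n = 5), the ratio differed by 0.62 (exact permutation p = 0.111), higher in 4 of 5 rats. With the 59 fragments included it was lower by a log2 difference of -2.22 (exact permutation p = 0.00794). This restates the rise of the lysine fragments beside an overlapping sum of the 59 and is a description.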

How the data were processed

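Small RNAs from both brain sides of 5 rats were sequenced. Reads of low quality and short reads were removed by the authors with the fastx toolkit, and they compared the rest with miRBase, then with other databases allowing 2 mismatches, and placed tRNA fragments with the Genomic tRNA Database. The submitters' processing notes name the build rn4, and no coordinates were used. The deposited counts are raw reads per fragment, and the deposited RPM values, headed TPM, are these reads per 1000000 library reads, not scaled for length. Library totals were computed as reads divided by RPM. Intervals and the floor of 3 reads cover counting error only.

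A fragment was tested, if 5 libraries or more held 10 or more reads of it, with edgeR 4.0.16 (R 4.3.3), with robust quasi-likelihood dispersions, Benjamini-Hochberg adjustment over 876 fragments and a threshold of 0.05. The SE printed for edgeR was derived as the absolute log2 fold change divided by the square root of the F statistic. DESeq2 1.42.0 was an alternative. On simulated counts of these 876 fragments, 200 of them were changed by 3 on the log2 scale, up or down at random. Of the 200, edgeR recovered 100% and DESeq2 98%, and 2.44% and 5.77% of their calls were unchanged fragments. Library totals were the library sizes there. The fit scaled to the tRNA reads was not simulated, nor was a list in which most fragments rise. Single values were compared by two-sided exact permutation of the difference of means over 252 groupings (scipy 1.17.1 with numpy 2.4.6 and pandas 2.3.3 under Python 3.11.15). Where a library was at 0, 1 RPM was added before the logarithm.

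Both libraries of a number came from 1 rat, so the numbers pair the libraries. Deviations from the group means correlated by 0.06, 0.14, -0.15, 0.25 and 0.01 within rats 45, 52, 61, 71 and 72.

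A 5′ fragment begins at position 1, a 3′ fragment ends within 3 nts of the last position, and others are internal. Named fragments were the 8 most abundant of the 26, the most abundant of each tRNA, the 2 most abundant of each end class, the 3 most abundant of the 59, and up to 5 rises and 5 falls past the threshold, with the same direction in 5 of 5 rats and 20 or more reads on average. Those of positions 10 to 13 and further span sets were named after their values were seen. The members and lists were chosen with earlier results of these data known.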

Additional observations from a re-analysis of the deposited data

Results flagged for a closer look

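The summed level of tRNA4199-GlnCTG without the fragment kept apart, and equally its fragment of positions 17 to 45, was 0.0234 RPM in the control library of rat 72 and 0 in the other 4 control libraries. It was flagged as far from the rest of its group. The value is 1 read, below the floor of 3 reads, and does not set this library apart. The control library of rat 72 had the largest total, 42674116 reads. Of 68 groups of 5 libraries examined 2 were flagged in this way, and both are the same value. Chance flags about 1 in 20 groups.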

How the results depend on the processing

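With groups formed by the source label, no tested fragment of the whole list passed the threshold, with 0 tRNA-Gln(CTG) fragments higher and 0 lower in edgeR (0 of the 8 within their span at an unadjusted p of 0.05). The log2 difference of the summed level became 0.32, that of tRNA3809 alone 0.32, of tRNA1634 -0.0227, of tRNA4199 0.18, of the ratio to tRNA-Gln(TTG) -0.40 and to leucine tRNAs 0.83, and the share of the fragments kept apart differed by 1.07 percentage points. Log2 fold changes that turned direction in that grouping were -0.0702 (1 to 34), -0.34 (1 to 33), -0.11 (1 to 32), -1.17 (7 to 33), -0.57 (7 to 34), -1.14 (6 to 33), 0.98 (16 to 41), 0.50 (8 to 33), 0.45 (26 to 54), 1.02 (28 to 53), 0.0866 (27 to 54) and 0.82 (16 to 42). Direction was kept, without a call, at 0.23 (1 to 31), 0.21 (1 to 29), 0.14 (12 to 40) and 1.25 (13 to 41). The cause was not tested.

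Library totals with TMM factors moved the median log2 fold change of all fragments from 4.23 to 0.47 and gave 0 tRNA-Gln(CTG) fragments higher and 20 lower, with log2 fold changes of -0.40 (1 to 34), -0.11 (1 to 33), 0.18 (1 to 32), -0.76 (1 to 31), -0.65 (1 to 29), -0.41 (7 to 33), -0.18 (7 to 34), -0.20 (6 to 33), -0.32 (12 to 40) and -0.28 (13 to 41). Reads outside the list as library sizes gave 6 lower. With no filter 47 were higher, since 2262 fragments were tested, and with at least 10 reads in all 10 libraries 1 was higher and 4 lower, since 145 were tested. The 6 concordant libraries gave 3 lower.

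With the 59 fragments included, the log2 difference of the summed level was 0.57 and of tRNA3809 0.57, the share of tRNA reads differed by -0.83 percentage points (exact permutation p = 0.00794), the 5′ share by 28.3 and the share of 29 to 34 nts by 30.1, and the log2 ratio to tRNA-Gln(TTG) by -1.71 and to lysine tRNAs by -2.22. These changes of the share of tRNA reads and of both ratios are descriptions, as stated above. With 1 library left out, the share of tRNA reads differed by -0.0163 (without the control library of rat 52) to -0.00675 percentage points (without that of rat 72) and the 5′ share by -8.18 to -3.19, and the fragments called lower numbered 8 to 12. Of 170 values of 17 named fragments, 164 stayed on their side of the threshold, those of the uncalled fragment of positions 15 to 40 included, and 6 lost the call.

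With rats as a replicate block, 18 fragments were higher and 11 lower, 10 of them among the 11, and the fragment of positions 16 to 41 was lost (-0.90). In exact permutation tests with paired sign flips single values cannot go below p = 0.0625, so the pairing says nothing about their calls, and no other named call changed. The control group rested on few reads, with 41 to 372 per library in the 26 fragments.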
